A study of Drosophila melanogaster with 36 samples.

Results

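Long noncoding RNA genes were described across 4 kinds of sorted cells from imaginal discs, wing and haltere, of Drosophila melanogaster. The genes were those whose symbol begins with lncRNA:, leaving out roX1 and roX2, and that reached at least 5 CPM (read counts scaled to the library total) in both replicates of at least 1 kind of cell. By this rule 219 of the 1909 long noncoding RNA genes in the count files were taken, among 17807 genes in all. Of the others, 1643 had counts below the rule and 47 had none in any library. The same rule kept 7168 protein-coding genes.

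The RNA came from L3 larvae at the wandering stage, raised at 25 °C, in libraries made from cells of the haltere or the wing disc, the epithelial sacs that form the adult appendages. The cells carried a nuclear envelope GFP (uas-kash.GFP) in a yw background, driven by nub.gal4 or by tsh.gal4. The nub driver is active in the distal appendage primordium and the tsh driver in proximal cells, so each group is defined by the reach of its driver. The 4 groups, named by disc and driver as haltere or wing and tsh or nub cells, held 2 libraries each, and the labels give no mutation or knockdown. They do not tie a replicate to its own set of larvae. All p-values here therefore rest on the spread between these libraries, which may be technical.

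Long noncoding RNAs are transcripts without a long open reading frame. Some act on the gene they lie beside, by their transcription or as RNA; others are the precursors from which microRNAs are cut, build nuclear bodies, or feed the small RNAs that silence transposons. In the imaginal discs the genes that specify segment and position, such as the Hox gene Antp or the appendage gene rn, lie in long regions of regulatory DNA in which many noncoding transcripts are annotated.

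Totals per library ranged from 15110163 to 17705451 counts, apart from the haltere nub libraries with 96525031 and 92342738. The Hox gene Ubx stood at 773 to 2781 CPM in the haltere libraries and at 2.02 to 38.6 CPM in the wing libraries. The summed level of the nub cell markers nub, rn, vg and Dll was 2448 to 3596 CPM in nub cells and 155 to 258 CPM in tsh cells. That of the tsh cell markers tsh, tup, eyg and tio was 1129 to 1243 CPM in tsh cells and 29.8 to 106 CPM in nub cells. Of these, eyg went the other way in the haltere disc, with 63.2 and 72.6 CPM in nub and 46.3 and 42.3 in tsh cells. Wing tsh replicate 1 stood apart: it had 879 long noncoding RNA genes at 1 CPM or more, where the other 7 had 361 to 404. Its 4 hemocyte markers summed to 29.1 CPM, against 1.97 to 8.75 elsewhere, and its 4 fat body markers to 23.5 CPM, against 2.20 to 4.34, with Lsp2 below 1 CPM in every library. Of the 6 myoblast markers, the 5 other than Mef2 summed to 82.5 and 66.7 CPM in wing tsh cells and 22.6 and 21.9 in haltere tsh cells. They summed to 6.68 and 4.56 in haltere nub and 8.10 and 9.09 in wing nub cells. Mef2 itself stood at 87.8 to 115 CPM in every library, highest in haltere nub cells at 113 and 115. With it, all 6 summed to 191 and 155 CPM in wing tsh and 122 and 118 in haltere tsh cells. In nub cells all 6 summed to 120 and 119 in the haltere and 98.8 and 108 in the wing. These bulk values cannot tell fewer cells of a type from less RNA per cell.

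The 219 genes took up 1.63% to 1.94% of each library's counts. Without Hsromega and CR42862, the 2 with the largest shares, they held 0.631% to 0.697%. A single read equalled 0.0104 to 0.0662 CPM. Most of the genes were detected in every kind of cell: 141 passed 5 CPM in all 4 groups, 20 in 3, 29 in 2 and 29 in 1. Those that passed in 1 group only were 11 in haltere nub, 11 in wing tsh, 4 in wing nub and 3 in haltere tsh cells. The members just inside the threshold were CR46041 (5.14 CPM in the lower wing nub replicate), CR45228 (5.18, haltere nub) and CR45983 (5.26, wing tsh). Just outside lay CR44131 (4.93, haltere nub), CR44833 (4.86, wing nub) and CR42861 (4.73, haltere tsh).

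In the Release 6 annotation, of which dm6 is a build, 167 members overlapped a protein-coding gene and 52 did not. Among the latter, 31 lay within 1 kb of a coding gene and 4 lay farther than 10 kb from one, with a median gap of 739 bp. The genes were spread over the arms 3L (67), 3R (54), 2L (44), 2R (30), X (21) and 4 (3), and none lay on Y. The median annotated span was 1051 bp, from 201 to 223710 bp. The sources used here do not say whether reads were counted by strand, so where a member overlaps another gene their reads may not be told apart. Levels below are CPM scaled by the trimmed mean of M values (TMM), and paired values are replicates 1 and 2. They are shares of reads and are not set against each other between genes, since only gene spans and no exon lengths were used.

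Each comparison was tested with edgeR's quasi-likelihood test over all 11198 genes that passed a filter on low counts, and a gene was called at a Benjamini-Hochberg adjusted p under 0.05. Every fold change below is a log2 fold change ± SE from this fit, and every p is adjusted over all genes tested. The rule used the same libraries. A member that passed through 1 group only had at least 1 replicate under 5 CPM in each other group. This favoured differences between groups, so the shares called below describe the list and support nothing. For members that reached 5 CPM in some groups only, the p-values are descriptions too. Such members include CR44932, CR45559, CR44366, CR44918 and CR44612, which passed through wing tsh cells only. They also include CR44830, CR43818 and CR43148 (haltere nub cells only) and CR44319 (haltere tsh cells only). CR44333, CR44334, CR45759, CR44760 and CR42651 passed through nub cells of both discs only. CR43849 and CR44955 passed through tsh cells of both discs only, and CR45018 through wing cells only. CR43252, CR33938, CR43640 and CR45232 passed in 3 groups. Nub cells of the haltere differed from those of the wing in 63 of 219 members, 35 higher and 28 lower (28.8%, against 23.3% of all genes tested and 31.6% of coding genes that passed the 5 CPM rule). Among all genes 9.72% were higher and 13.6% lower. Tsh cells of the 2 discs differed in 18 members, 4 higher and 14 lower in the haltere (8.22%, against 3.26% of all genes, 1.04% higher and 2.22% lower, and 4.46% of coding genes). In the wing disc, nub and tsh cells differed in 56 members, 22 higher and 34 lower in nub cells (25.6%, against 13.8% of all genes, 5.96% higher and 7.88% lower, and 17.5% of coding genes). In the haltere disc they differed in 84, 48 higher and 36 lower (38.4%, against 24.9% of all genes, 9.96% higher and 15.0% lower, and 33.6% of coding genes). The disc by domain interaction, which asks whether the nub against tsh fold change differed between the discs, was called in 36 members, 21 higher and 15 lower (16.4%, against 15.4% of all genes, 7.32% higher and 8.10% lower, and 19.8% of coding genes). Among the 141 members that passed 5 CPM in all 4 groups the shares called in these 5 tests were 29.1%, 3.55%, 20.6%, 33.3% and 18.4%. Among coding genes that did so they were 30.6%, 3.56%, 15.2%, 32.2% and 18.4%. Leaving out 1 library moved the numbers by more than 1.5 times, between nub cells to 35 and 33 without haltere nub replicates 1 and 2 and to 33 without wing nub replicate 1. They went between tsh cells to 7 and 10 without haltere tsh replicates 1 and 2, between wing domains to 37 without wing nub replicate 2, and between haltere domains to 51 without haltere tsh replicate 1. The interaction gave 18 without haltere tsh replicate 1, 16 without haltere nub replicate 2 and 20 without wing nub replicate 1. Without wing tsh replicate 1 there were 20 calls between tsh cells and 61 between wing domains. The shares over all genes moved too. Without wing tsh replicate 2, 1621 genes were called between tsh cells, or 14.5%, against 25 members, or 11.4%, so that the order of the shares turned around. It also turned between wing domains, to 24.3% of all genes against 22.8% of members, and for the interaction, to 30.4% against 17.4%.

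The median log2 fold change of the 219 genes was 0.06 between nub cells, -0.06 between tsh cells, -0.02 between domains of the wing disc, 0.12 between domains of the haltere disc and 0.11 for the interaction. Over all genes tested these medians were -0.01, -0.03, -0.01, -0.01 and 0.01. The domain comparisons of the 2 discs use separate libraries: 15 members (6.85%) were higher in nub cells in both discs, 18 (8.22%) were lower in both, 5 (2.28%) were called in opposite directions and 117 (53.4%) were called in neither. Over all genes tested these shares were 2.54%, 4.30%, 1.34% and 69.4%. Between the discs, 6 members (2.74%) were lower in the haltere in both domains, 1 (0.457%) was higher in both, 0 were called in opposite directions and 145 (66.2%) were called in neither. Over all genes tested these shares were 0.795%, 0.286%, 0.732% and 75.2%. In all, 102 members were called in none of the 4 comparisons of 2 groups. The ratio of the highest to the lowest group mean was under 2 in 153 members, 4 or more in 24 and 10 or more in 16.

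**Figure D1:**
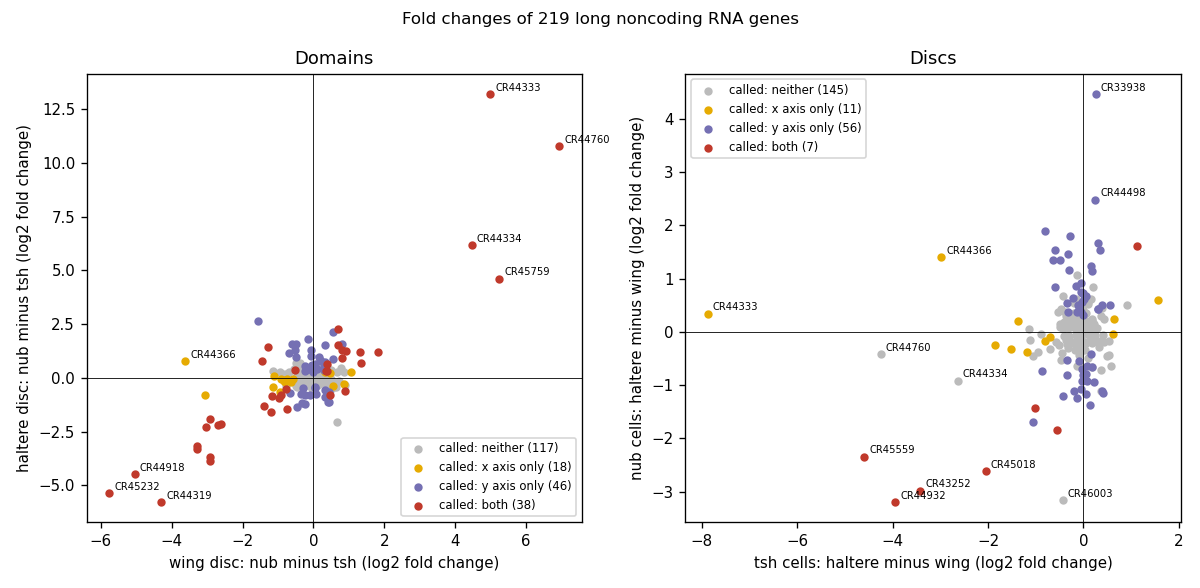
Log2 fold changes of the 219 genes, 1 point per gene. The left panel plots nub minus tsh cells in the wing disc (x axis) and in the haltere disc (y axis); the right panel plots haltere minus wing in tsh cells (x axis) and in nub cells (y axis). Colours mark genes called on both axes, 1 axis or neither, with their numbers. The fitted values of CR44333 and CR44760 involve haltere tsh libraries with 0 counts, depend on the prior count and are no measure of size. Points called on both axes of the left panel lie mostly along the rising diagonal, and those of the right panel mostly at the lower left.

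At the Antp locus, the 3 members CR44932, CR43252 and CR45559 were far higher in wing tsh cells than in any other group. Antp, the Hox gene of the second thoracic segment, had the same order of group levels. CR44932 (3R, 6895178 to 6896128) ends 124 bp before the annotated Antp gene. It stood at 33.2 and 44.5 CPM in wing tsh cells, 5.52 and 4.06 in wing nub, 2.96 and 2.11 in haltere tsh and 0.561 and 0.477 in haltere nub cells. No 2 groups overlapped, with wing tsh highest and haltere nub lowest. CR44932 passed the rule through wing tsh cells only, so the rule favoured a high level there, and its p-values are descriptions. The log2 fold change was -3.94 ± 0.24 between tsh cells of haltere and wing (adjusted p = 2.4e-06) and -3.19 ± 0.25 between nub cells (adjusted p = 7.2e-06). Nub cells had less than tsh cells, with fold changes of -3.02 ± 0.22 in the wing and -2.27 ± 0.28 in the haltere disc (adjusted p = 1.7e-06 and 1.1e-04).

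CR43252 (3R, 6903442 to 6904682) lies within Antp, so their reads may be shared. It stood at 51.3 and 64.2 CPM in wing tsh, 10.7 and 8.46 in wing nub, 5.14 and 5.65 in haltere tsh and 0.663 and 1.77 in haltere nub cells. The groups came in the same order as for CR44932, again with no overlap. Its fold changes were -3.42 ± 0.39 between tsh cells and -2.98 ± 0.40 between nub cells (adjusted p = 0.0036 and 0.0024). The first was lost without haltere tsh replicate 1 and without the filter on low counts. CR45559 (3R, 6892918 to 6893462), 2790 bp from Antp, stood at 8.41 and 7.93 CPM in wing tsh cells and at 0.184 to 1.24 CPM in the other 6 libraries. It also passed the rule through wing tsh cells only. The rule thus favoured the direction of its fold change between tsh cells, -4.60 ± 0.55, which is a description only. The wing means of Antp itself were 1131 ± 187 CPM in tsh and 154 ± 4.18 in nub cells, and its haltere means were 82.6 ± 18.1 and 18.8 ± 2.17 (SD, n = 2). Its fold changes were -3.78 between tsh and -3.03 between nub cells. The myoblast markers other than Mef2 were also highest in wing tsh cells, as given above, and their part in these differences was not tested. Without wing tsh replicate 1 the fold changes between tsh cells were -4.14 for CR44932, -3.57 for CR43252 and -4.55 for CR45559, all still called.

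**Figure D2:**
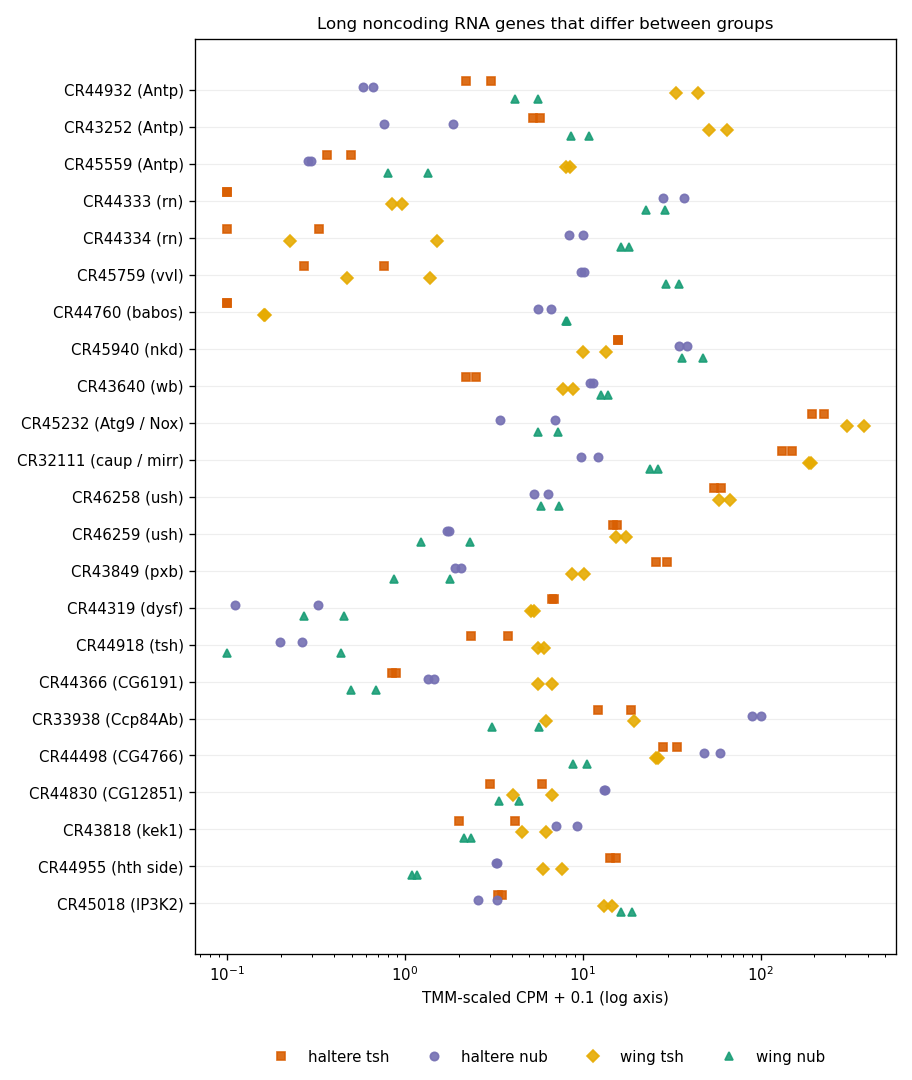
TMM-scaled CPM plus 0.1 (log axis) of 23 members in each of the 8 libraries; squares are haltere tsh, circles haltere nub, diamonds wing tsh and triangles wing nub cells, 1 symbol per library. The coding gene at or beside each member is in parentheses. For CR44955 this is the hth side, though Cyp12e1 lies nearer. The 3 members at Antp have their wing tsh symbols far to the right of the others, those at rn, vvl and babos have their nub symbols to the right, and those from CR45232 to CR44918 have their tsh symbols to the right.

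At the rn locus the order turned around, with nub cells high in both discs. The gene rn encodes a zinc finger factor of the distal appendage. CR44333 (3R, 7285230 to 7285595) lies within rn and 366 bp from RacGAP84C, a GTPase-activating protein gene. Neither haltere tsh library had a count of it. It stood at 0.860 and 0.749 CPM in wing tsh, 36.9 and 28.0 in haltere nub and 28.8 and 22.5 in wing nub cells. Nub and tsh libraries were far apart in both discs, while the nub cells of the discs overlapped. The floor was taken as 3 counts over the haltere tsh group. By it, CR44333 was at least 8.77-fold lower in haltere tsh than in wing tsh cells (adjusted p = 0.0073). The call on CR44333 was lost without either haltere tsh library and with only the 4 libraries compared. In the wing disc its nub cells were higher by 4.99 ± 0.26 (adjusted p = 2.9e-07). CR44334 (3R, 7312338 to 7312858), 2708 bp from rn, stood at 8.26 and 9.93 CPM in haltere nub and 16.4 and 18.0 in wing nub cells, and at 0 to 1.41 CPM in the tsh libraries. It rose by 4.47 ± 0.65 in wing and 6.18 ± 0.87 in haltere nub cells (adjusted p = 0.0033 and 0.0019). The wing value was 7.07 without wing tsh replicate 1, and the interaction, called in neither fit, went from 1.71 to -0.89. Its difference between the nub cells of the discs did not pass (-0.92 ± 0.47, adjusted p = 0.22) except in a fit of these 4 libraries alone. For rn the nub means were 1119 ± 58.5 CPM in the haltere and 1157 ± 26.7 in the wing disc, and the tsh means 6.26 ± 2.05 and 31.2 ± 3.18 (SD, n = 2).

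CR45759, CR45940 and CR43640 were also higher in nub cells of both discs. CR45759 (3L, 6786660 to 6787105) lies 3052 bp from vvl, a POU-domain factor of wing veins and trachea. Its nub cells had 9.66 and 10.1 CPM in the haltere and 29.1 and 34.6 in the wing, against 0.658 and 0.171 in haltere tsh and 1.29 and 0.375 in wing tsh cells. Wing nub cells were highest and the tsh groups overlapped. It rose by 5.25 ± 0.38 in the wing disc (6.40 without wing tsh replicate 1) and 4.62 ± 0.44 in the haltere disc, and haltere nub cells had less than wing nub cells (-1.69 ± 0.27, adjusted p = 0.0019). The coding gene vvl changed by 2.97, 2.32 and -1.43 in the same comparisons. Of the other tracheal markers, trh was also highest in wing nub cells, at 196 and 194 CPM, with 63.7 and 68.7 in haltere nub and 14.4 to 30.8 in tsh cells. The other two were low in nub cells, btl at 0.694 to 3.36 CPM in nub and 10.5 to 18.4 in tsh cells, and dysf at 1.21 to 3.59 in nub and 86.2 to 105 in tsh cells; the part of trachea was not tested. CR45940 (3L, 19033317 to 19033900), within nkd, a feedback inhibitor of Wnt signalling, stood at 15.7 and 15.7 CPM in haltere tsh and 13.4 and 9.93 in wing tsh cells. Its nub values of 34.7 and 38.2 CPM in the haltere and 47.4 and 35.9 in the wing disc lay above all of these. It rose in nub cells of the wing disc (1.84 ± 0.17) and of the haltere disc (1.21 ± 0.16), as nkd did (1.59 and 1.78). CR43640 (2L, 14293275 to 14295394), within the laminin gene wb, stood at 2.11 and 2.40 CPM in haltere tsh cells, against 8.72 and 7.62 in wing tsh, 11.3 and 10.8 in haltere nub and 13.8 and 12.6 in wing nub cells. Haltere tsh cells alone were low, at -1.85 ± 0.19 from wing tsh cells (adjusted p = 1.7e-04). It rose by 2.29 ± 0.18 in nub cells of the haltere disc. The gene wb had fold changes of -1.07 and 1.87 in these comparisons. The call of CR43640 between the domains of the wing disc was lost without wing tsh replicate 2 and without either wing nub library.

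Of the members that were lower in nub than in tsh cells of both discs, CR32111 (3L, 12627934 to 12648280) lies between caup, at 6135 bp, and mirr, at 45358 bp, homeodomain genes of the Iroquois complex. It stood at 131 and 149.9 CPM in haltere tsh and 193 and 188 in wing tsh cells, against 12.1 and 9.71 in haltere nub and 26.5 and 23.7 in wing nub cells. The groups did not overlap, and nub cells were lower, with fold changes of -2.92 ± 0.12 in the wing and -3.68 ± 0.12 in the haltere disc (adjusted p = 1.7e-08 and 2.3e-09). In the same comparisons caup changed by -1.75 and -3.34, and mirr by -1.49 and -1.86.

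CR46258 (2L, 490835 to 492649) and CR46259 (2L, 500873 to 502236) both lie within ush, which encodes a cofactor of GATA factors in the notum. CR46258 stood at 59.6 and 54.9 CPM in haltere tsh and 58.4 and 67.5 in wing tsh cells, at 6.26 and 5.21 CPM in haltere nub cells and at 7.28 and 5.75 CPM in those of the wing. It separated the domains without separating the discs. Its fold changes were -3.27 ± 0.15 and -3.32 ± 0.14 in wing and haltere disc, and those of CR46259 were -3.29 ± 0.26 and -3.19 ± 0.23. For ush they were -2.38 and -2.31. CR44918 (2L, 21864946 to 21866291), 27934 bp from the driver gene tsh, stood at 2.24 and 3.71 CPM in haltere tsh, 5.53 and 5.93 in wing tsh and 0 to 0.338 CPM in nub cells (-5.04 ± 0.89 and -4.47 ± 0.80). It followed the driver of the sort, as tsh did (-5.56 and -5.03). CR44319 (3R, 26092850 to 26093722), within the bHLH-PAS gene dysf, stood at 5.03 to 6.78 CPM in tsh and 0.0108 to 0.352 CPM in nub cells (-4.29 ± 0.89 and -5.77 ± 0.86; the call in the wing disc was lost without either wing nub library).

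Some members also separated the tsh cells of the discs. CR43849 (3R, 15667978 to 15668676), within pxb, stood at 29.8 and 25.6 CPM in haltere tsh, 8.60 and 10.1 in wing tsh and 0.763 to 1.95 CPM in nub cells. It was higher in haltere than in wing tsh cells by 1.57 ± 0.22 (adjusted p = 0.0015), as was pxb (1.17). CR44955 (3R, 10462387 to 10464978), 42582 bp from hth, a homeodomain gene of proximal cells, and 25682 bp from Cyp12e1, was the member higher in the haltere in both domains. It stood at 14.2 and 15.2 CPM in haltere tsh, 7.55 and 5.87 in wing tsh, 3.16 and 3.18 in haltere nub and 0.998 and 1.07 in wing nub cells, with no 2 groups overlapping. The difference was 1.13 ± 0.20 in tsh cells (adjusted p = 0.0087, lost without either haltere tsh library) and 1.61 ± 0.24 in nub cells (adjusted p = 7.8e-04). For hth the fold changes were 0.10 between tsh cells, not called, and 0.54 between nub cells, called. Those of Cyp12e1, which lies nearer to CR44955, are not given here. CR45953, within rgn, was higher in haltere than in wing tsh cells by 0.65 ± 0.14, a call lost without either haltere tsh library and without wing tsh replicate 2. It was also lost with only the 4 libraries compared.

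**Figure D3:**
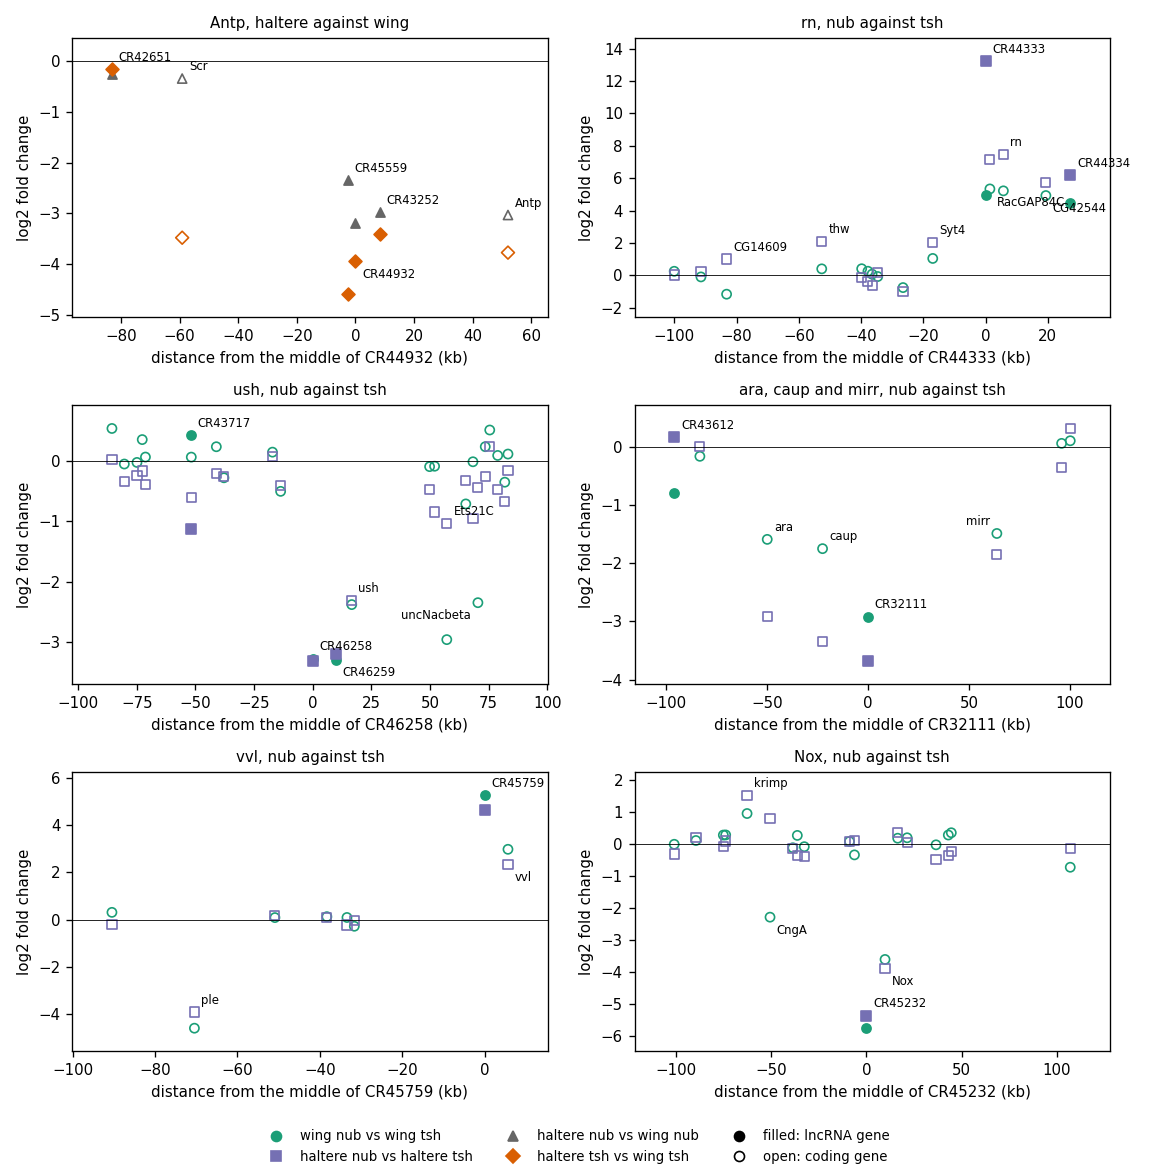
Log2 fold changes along 6 loci, against the distance in kb between the middle of a gene and the middle of the named long noncoding RNA gene. Filled symbols are long noncoding RNA genes and open symbols are protein-coding genes, both limited to genes tested that reached 5 CPM in a library; the Antp panel plots haltere against wing (triangles nub cells, diamonds tsh cells), the others nub against tsh (circles wing disc, squares haltere disc). The haltere value of CR44333 rests on 0 counts in haltere tsh cells and is no measure of size. Members and the coding gene beside them lie far from 0 in the same direction at Antp, rn, ush, caup, vvl and Nox, and so do RacGAP84C and CG42544 at rn and ara and mirr beside caup. Many other genes lie nearer to 0, among them the members CR42651 in the Antp panel and CR43612 in the caup panel. The member CR43717 in the ush panel lies at 0.43 in the wing and -1.12 in the haltere disc. In the vvl panel ple, not called, lies opposite to vvl at -4.58 in the wing and -3.90 in the haltere disc. In the ush panel Ets21C and uncNacbeta also lie far below 0 in the wing disc (-2.96 and -2.35). The haltere against wing value of Scr in tsh cells rests on wing tsh replicate 1, the only library where it reached 5 CPM.

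Some members differed from the coding gene nearest to them. CR45232, on 2R, lies 216 bp from Atg9, an autophagy gene, and 573 bp from Nox, an NADPH oxidase gene. It stood at 227 and 195 CPM in haltere tsh and 381 and 308 in wing tsh cells, at 6.83 and 3.34 in haltere nub cells and at 5.52 and 7.16 in those of the wing. This was the largest fall in nub cells of the wing disc among the members (-5.76 ± 0.40, adjusted p = 2.5e-04), and it fell by 5.37 ± 0.36 in the haltere. Atg9 did not pass in either domain comparison (-0.34 and 0.10), whereas Nox fell in both (-3.61 and -3.88). CR44760, on 2R, 835 bp from babos, had 0 counts in haltere tsh cells and 0.0614 and 0.0624 CPM in wing tsh cells. Its nub values were 5.53 and 6.50 CPM in the haltere and 7.98 and 8.07 in the wing. It was at least 65.4-fold higher in nub than in tsh cells of the haltere (adjusted p = 2.0e-06), taking 3 counts over the tsh group as the floor. In the wing the ratio was 130, with a 95% counting interval of 35.6 to 1076, from 2 counts in tsh cells. The gene babos went the other way, with less in nub cells of both discs (-1.06 and -1.56).

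CR45018 (X, 13304005 to 13308004), within the inositol kinase gene IP3K2, had less in the haltere in both domains. It stood at 3.42 and 3.25 CPM in haltere tsh and 3.20 and 2.48 in haltere nub cells, against 13.0 and 14.5 in wing tsh and 16.3 and 18.8 in wing nub cells. The discs did not overlap, and the haltere domains lay next to each other. Its fold changes were -2.62 ± 0.18 between nub cells and -2.04 ± 0.20 between tsh cells (adjusted p = 2.6e-06 and 1.0e-04). IP3K2 was lower between tsh cells (-1.13) and did not pass between nub cells (0.15, adjusted p = 0.23). CR44366, on 2R, 686 bp from CG6191, stood at 5.53 and 6.62 CPM in wing tsh cells and at 0.395 to 1.36 CPM elsewhere. It differed by -2.98 ± 0.49 between tsh cells, a direction that the rule favoured, while CG6191 did not pass in any comparison. Without wing tsh replicate 1 the value was -3.11, still called; the call was lost without either haltere tsh library.

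A group of members was highest in haltere nub cells. Of these, CR44830 and CR43818 passed the rule through haltere nub cells only. CR33938, also known as pncr002:3R (3R, 6699560 to 6700164), lies 1803 bp from the cuticle protein gene Ccp84Ab. It stood at 89.7 and 101 CPM in haltere nub cells, 18.5 and 12.0 in haltere tsh, 6.08 and 19.4 in wing tsh and 2.99 and 5.58 in wing nub cells. Haltere nub cells stood apart from all others, and the wing tsh replicates were far from each other. The difference from wing nub cells was 4.47 ± 0.62 (adjusted p = 0.0076, lost without wing nub replicate 1). Ccp84Ab, at 24.2 ± 3.47 CPM in haltere nub and under 3 CPM on average in each other group, differed by 5.19 ± 0.46.

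CR44498 (X, 6001511 to 6005713) lies 713 bp from CG4766 and 2469 bp from mab-21. It stood at 47.8 and 58.9 CPM in haltere nub, 28.0 and 33.6 in haltere tsh, 26.3 and 25.8 in wing tsh and 10.4 and 8.69 in wing nub cells. The nub cells were thus highest in the haltere disc and lowest in the wing disc. Between nub cells it differed by 2.48 ± 0.15 (adjusted p = 8.3e-07), with 2.04 for mab-21 and 1.64 for CG4766. CR44830, on 2R, 99 bp from CG12851, stood at 13.1 and 13.2 CPM in haltere nub and 2.90 to 6.62 CPM in all other libraries (1.80 ± 0.32 against wing nub cells). CR43818 (2L, 12807643 to 12808340), 8659 bp from kek1, an inhibitor of the EGF receptor, stood at 6.99 and 9.12 CPM in haltere nub and 1.91 to 6.12 CPM elsewhere (1.90 ± 0.35). In the wing disc its nub cells were lower (-1.29 ± 0.36), where kek1 was higher (0.32). That call on CR43818 was lost without wing tsh replicate 2, without either wing nub library and with only the 4 libraries compared. CR32636 (X, 13332374 to 13333857), 379 bp from Prx2, was higher than in wing nub cells by 1.67 ± 0.35, but its haltere nub replicates, at 18.3 and 33.3 CPM, were far apart, and the call was lost without either wing nub library and without the filter on low counts.

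There are 15 members that span a microRNA gene, 19 microRNA genes in all, and are named here as their hosts by position. Their levels are those of the long transcript, since mature microRNAs were not measured. Of the 15, 4 were higher and 4 lower in haltere than in wing nub cells, and 1 was higher and 1 lower between tsh cells, where 23.3% and 3.26% of all genes tested were called. In the wing disc 5 were higher and 1 lower in nub cells, and in the haltere disc 5 were higher and 3 lower, where 13.8% and 24.9% of all genes were called. With 15 genes these counts are a description only. Their median log2 fold change was -0.22, -0.07, 0.23 and 0.18 in these comparisons, against 0.06, -0.06, -0.02 and 0.12 for all 219.

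The host of bantam, CR43334 (3L, 628435 to 643900), was highest in wing nub cells. Bantam promotes growth and blocks cell death in the discs. The host stood at 1250 and 1121 CPM in wing nub cells, 664 and 572 in haltere nub, 807 and 695 in haltere tsh and 668 and 624 in wing tsh cells. Wing nub libraries lay above all others, and haltere nub and wing tsh cells overlapped. Haltere nub cells had less than wing nub cells (-0.94 ± 0.11, adjusted p = 1.3e-04), wing nub cells had more than wing tsh cells (0.88 ± 0.11, adjusted p = 1.8e-04), and the domains of the haltere disc did not pass (-0.28 ± 0.11, adjusted p = 0.082).

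The hosts of mir-8 and mir-276a were also highest in wing nub cells. CR43650, on 2R, the host of mir-8, a member of the miR-200 family, stood at 56.1 and 52.2 CPM in wing nub, 42.8 and 35.8 in wing tsh, 29.9 and 23.6 in haltere tsh and 15.7 and 14.6 in haltere nub cells. No 2 groups overlapped, and the lowest was haltere nub. It fell by 1.84 ± 0.13 from wing to haltere nub cells (adjusted p = 3.1e-06). Its call between tsh cells (-0.56) was lost without either haltere tsh library and without wing tsh replicate 1. That between wing domains (0.46) was lost without wing tsh replicate 2 and without either wing nub library. Both calls were also lost with only the 4 libraries compared. CR46006 (3L, 10323501 to 10367450), the host of mir-276a, stood at 83.8 and 82.9 CPM in wing nub, 68.0 and 51.6 in haltere tsh, 49.3 and 41.3 in wing tsh and 37.1 and 40.5 in haltere nub cells. The fall from wing to haltere nub cells was -1.10 ± 0.13 (adjusted p = 1.4e-04). CR43626 (3L, 3249340 to 3254504), the host of mir-282, also had less in haltere nub cells, at 39.5 and 45.0 CPM against 90.0 and 92.0 in wing nub cells (-1.11 ± 0.20; lost without replicate 1 of either group).

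Other hosts followed the domain. CR43314 (2L, 11952200 to 11971094), which spans mir-bft and is also known as pri-mir-263a, had nub values of 322 and 315 CPM in the haltere and 346 and 309 in the wing, 201 and 198 in haltere tsh and 130.2 and 128 in wing tsh cells. This microRNA protects sensory bristles. The nub cells overlapped between the discs while the tsh cells did not, and nub cells were higher by 1.34 ± 0.08 in the wing and 0.68 ± 0.08 in the haltere disc (adjusted p = 5.0e-07 and 1.1e-04). CR42651 (3R, 6808796 to 6816379), the host of mir-10, lies between the Hox genes Dfd and Scr and was also higher in nub cells, by 1.30 ± 0.22 and 1.21 ± 0.22. Scr and Dfd averaged at most 3.10 CPM in any group. Hosts highest in haltere nub cells were CR45920 of mir-316 (14.4 and 19.7 CPM there, 5.63 to 10.5 elsewhere; 1.47 ± 0.22 against wing nub cells) and CR45910 of mir-1000, within msi, a gene for an RNA-binding protein (0.55 ± 0.09; 0.60 for msi). CR43651, the host of mir-14, was higher by 0.62 ± 0.16; this call was lost without either haltere nub library and without wing nub replicate 1. The hosts of mir-9a (CR45916), of mir-279 and mir-996 (CR31044), of mir-277 and mir-34 (CR43459) and of mir-275 (CR43857) did not pass in any comparison over all 8 libraries. Each of them passed in at least 1 comparison under an alternative; CR43459 did so between wing domains without wing tsh replicate 1 (1.42, adjusted p = 0.046). Under no alternative did let7C pass, which holds let-7, mir-100 and mir-125 and is induced by ecdysone at metamorphosis, at 35.0 to 55.4 CPM.

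**Figure D4:**
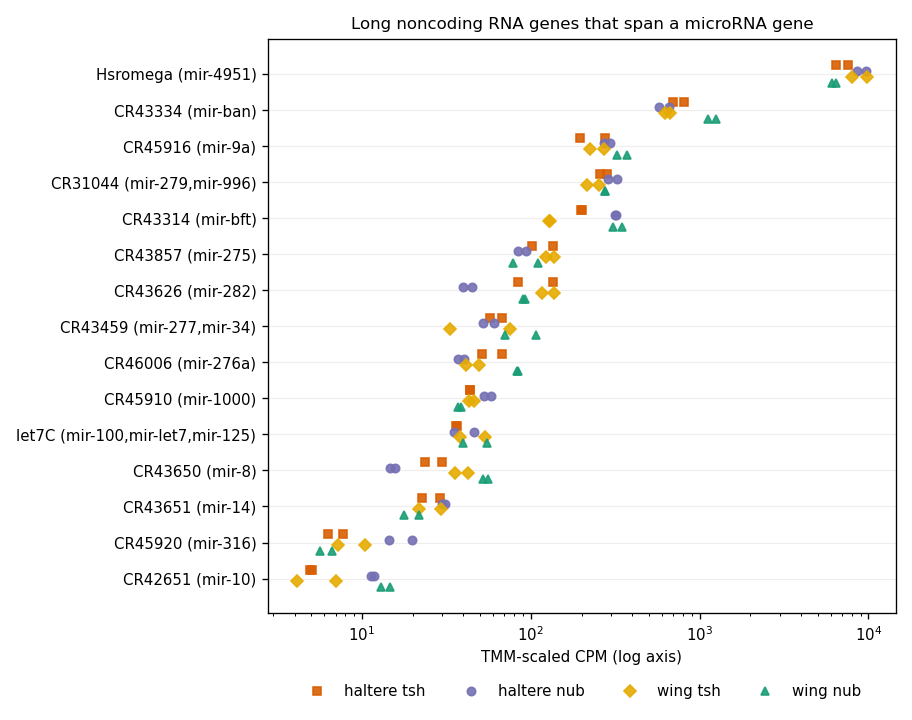
TMM-scaled CPM (log axis) of the 15 members that span a microRNA gene, in each of the 8 libraries; squares are haltere tsh, circles haltere nub, diamonds wing tsh and triangles wing nub cells, 1 symbol per library, with the microRNAs in parentheses. The wing nub symbols of CR43334, CR43650 and CR46006 lie to the right of all others, and the nub symbols of CR43314 and CR42651 to the right of the tsh symbols.

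Some members are better known as RNAs than by their neighbours. Hsromega (3R, 21296127 to 21317836), a heat-inducible RNA that organises nuclear omega speckles and spans mir-4951, held the largest share of reads. Its nub cells had 8601 and 9670 CPM in the haltere and 6101 and 6431 in the wing, where its tsh cells had 6441 and 7582 and 8022 and 9835. Haltere nub cells overlapped wing tsh cells and lay above wing nub cells. The nub cells were higher in the haltere by 0.54 ± 0.12 (adjusted p = 0.0091, lost without replicate 2 of haltere nub or replicate 1 of wing nub cells). The transcript flam (X, 21631891 to 21790731), a cluster of transposon fragments that feeds piRNAs in somatic cells of the ovary, stood at 17.7 and 16.7 CPM in haltere tsh cells and 27.8 to 35.0 CPM in all other libraries. It was lower in haltere than in wing tsh cells (-0.81 ± 0.12, adjusted p = 0.0029) and higher in haltere nub than in haltere tsh cells (0.81 ± 0.12, adjusted p = 4.6e-04). The gene marge (3L, 14976626 to 14977631), 585 bp from Ocho of the Bearded family, was lower in nub cells of the wing (-1.17 ± 0.17) and of the haltere (-0.87 ± 0.16). Ocho fell in the wing (-1.33) and rose in the haltere (1.42). The gene noe, within blot, stood at 32.8 to 40.4 CPM and passed in no comparison. Of the other members with large shares of reads, CR42862, CR34335 and CR40469 were called in none over all 8 libraries, though each was called under an alternative, and CR42549 in haltere nub against haltere tsh cells (0.40 ± 0.10, lost without any one of these 4 libraries).

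The noncoding genes of the bithorax complex did not reach the rule. The gene bxd, upstream of Ubx, stood at 2.97 to 4.22 CPM of the library total in the haltere libraries, at 0.231 and 0.226 in wing nub cells, and at 5.01 and 0.0589 in wing tsh replicates 1 and 2. It was thus near 0 in 3 of the 4 wing libraries and high in the library that stood apart. The genes iab4 and iab8 likewise stood at 3.79 and 5.13 CPM in wing tsh replicate 1 and at no more than 0.456 in any other library. The gene cherub reached 8.53 CPM there and at most 1.15 elsewhere. The genes acal, yar, sphinx, dntRL, TS2, TS14 and alphagamma-element:CR32865 also stayed below the rule, and CRG had no count in any library. The names of snoRNA hosts (Uhg) matched no symbol with the prefix and were not analysed here.

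Fold changes of a member and of its nearest coding gene moved together across genes. For 208 members whose nearest coding gene was tested, Pearson's r was 0.66 between nub cells, 0.41 between tsh cells, 0.66 between wing domains and 0.63 between haltere domains, and Spearman's rho was 0.52, 0.39, 0.62 and 0.60. Over 8302 pairs of adjacent coding genes, Pearson's r was 0.32, 0.23, 0.31 and 0.37, and Spearman's rho was 0.24, 0.18, 0.21 and 0.24. For the interaction, r was 0.31 over the members and 0.30 over the adjacent coding pairs, and rho was 0.48 and 0.23. These are descriptions across genes that share the same 8 libraries and are not independent; 56 members share their nearest coding gene with another member, and 162 of the 208 overlap it and may share its reads. For the 31 members that overlap no other annotated gene, Pearson's r was 0.83, 0.41, 0.58 and 0.38, and Spearman's rho was 0.68, 0.19, 0.64 and 0.43. For the 46 that overlap no coding gene, r was 0.68, 0.22, 0.52 and 0.43, and rho was 0.53, 0.11, 0.45 and 0.53. Between tsh cells these 46 were thus no closer to their neighbours than adjacent coding genes were. Pearson's r includes fitted values that rest on groups with 0 counts. Without wing tsh replicate 1 the value between tsh cells was 0.52.

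Where both a member and its nearest coding gene were called, they mostly had the same direction. This was so in 31 of 32 pairs between nub cells, 10 of 10 between tsh cells, 34 of 36 between wing domains and 50 of 56 between haltere domains. Among adjacent coding genes the numbers were 463 of 634, 17 of 20, 223 of 276 and 506 of 675. Most of the members overlap that coding gene and may share its reads. For the 46 tested members that overlap no coding gene, the numbers were 8 of 8, 2 of 2, 9 of 11 and 11 of 14. Opposite pairs were CR44760 with babos in both discs, CR43818 with kek1 in the wing disc, and marge with Ocho in the haltere disc. In the haltere disc CR43148 (1.17) and CR44993 (0.32) were also higher in nub cells, where Df31, a chromatin decondensation factor, was lower (-0.45). CR46254, within Cda5, and CR32385, within Galphai, were opposite there too, and CR45226, within plum, between nub cells.

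**Figure D5:**
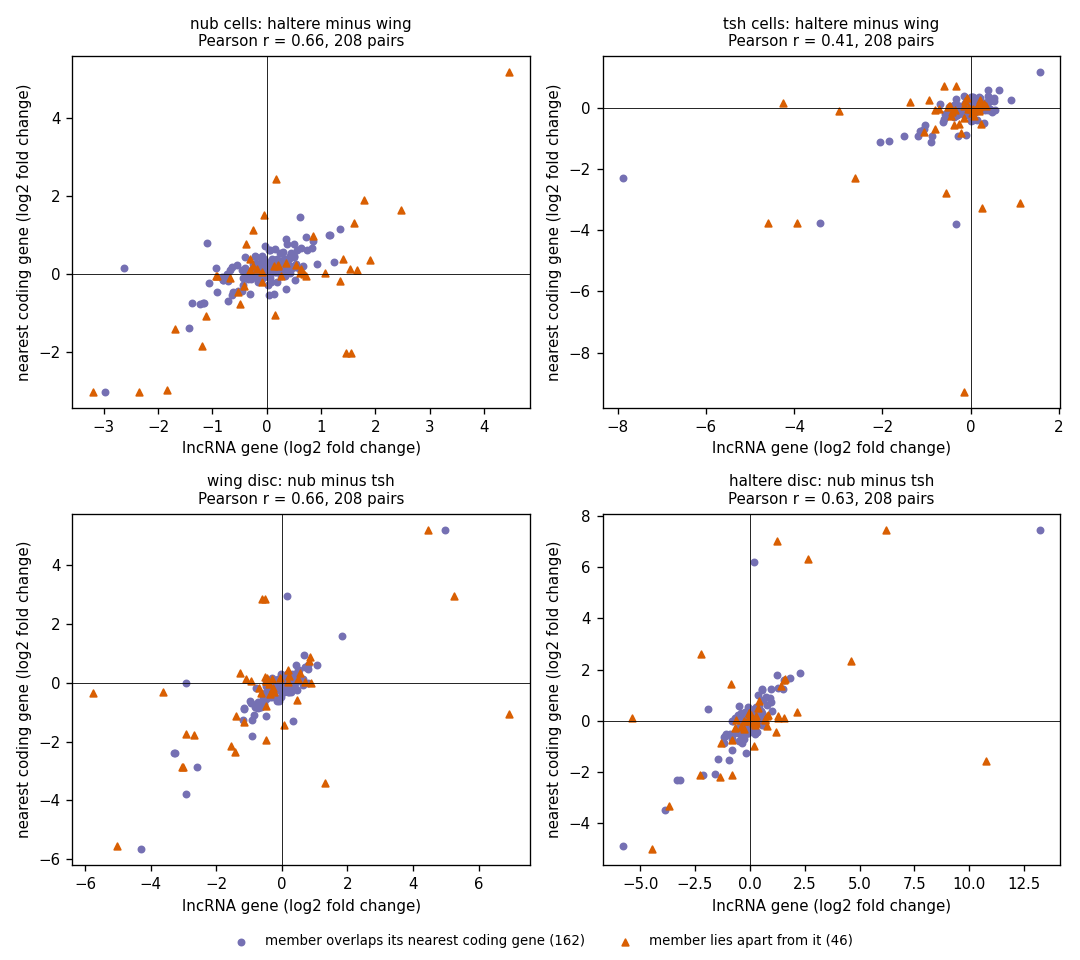
Log2 fold change of each member (x axis) and of its nearest protein-coding gene (y axis) in the 4 comparisons of 2 groups, for 208 pairs; circles are members that overlap that gene and triangles members that lie apart from it. Most points lie near the centre, and those far from it lie mostly in the lower left and upper right. Values of genes with 0 counts in a group depend on the prior count.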

How the data were processed

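The deposited files, 1 for each library, hold unnormalized counts of reads by gene, judged from their whole numbers and unequal totals. For the series as a whole, bcl2fastq, HISAT2, Bowtie2, deepTools and dm6 are named in the submitters' processing notes. Which counter and annotation release were used, and whether by strand, is not given in the sources used here. Chromatin samples (ATAC-seq, ChIP-seq) were not used here. Of the gene IDs, 17710 matched a symbol and 97 did not; positions come from RefSeq's Release 6 annotation.

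The fit used edgeR 4.0.16 in R 4.3.3, with filterByExpr, TMM scaling and a robust quasi-likelihood fit of the 4 groups over all 8 libraries (4 residual degrees of freedom, common biological coefficient of variation 19.9%). Tests were two-sided. Intervals and floors of 3 counts cover counting error only. Within every group the replicates differed beyond sampling noise (chi-square per gene 9.00 to 31.4 over genes with at least 20 reads). The pipeline was tested on simulated counts. Alternatives were DESeq2 1.42.0, RLE size factors, no filter, thinned haltere nub counts, a replicate block and left-out libraries.

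The members, the lists and the tests were chosen with earlier results of these data known. Members named were those of the role lists, the 10 with the largest shares of reads, up to 6 per direction and comparison with the largest called fold change and no overlap of replicates, the 6 with the smallest interaction p and 3 on each side of the threshold, with their neighbours. Members named outside it (CR43148, CR44993, CR46254, CR32385, CR45226) were chosen after their values were seen.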

Additional observations from a re-analysis of the deposited data

Results flagged for a closer look

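The following members had a fold change between nub and tsh cells that differed between the discs, by the disc by domain interaction of edgeR's quasi-likelihood test (adjusted p under 0.05 over all genes tested). The value is the log2 fold change in the haltere disc minus that in the wing disc. No explanation was tested. CR43818, CR44830 and CR44366 passed the rule through 1 group only, so their values are descriptions. CR44333 passed in nub cells only, and CR33938 and CR43640 passed in 3 groups, so the p-values of these members are descriptions too.

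Among the positive differences, the value was 4.21 for CR33938 (adjusted p = 0.036; lost without the filter on low counts and without any single library of the haltere or of wing nub cells), 2.71 for CR43818 and 2.24 for CR44498 (adjusted p = 4.7e-05). It was 2.07 for CR44830, 1.79 for CR45920, the host of mir-316, 0.89 for Hsromega, 0.63 for flam, which was low in haltere tsh cells, and 0.58 for CR45910, the host of mir-1000. The call for CR44830 was lost without either haltere nub library and without wing nub replicate 2, and that for Hsromega without haltere tsh replicate 1 and without haltere nub replicate 2. That for flam was lost without either haltere tsh library, and those for flam and CR45910 without haltere nub replicate 2 and without wing nub replicate 1; that for CR45910 also without haltere tsh replicate 1.

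CR44366 had a value of 4.38 and was high in wing tsh cells alone, and CR43640, within wb, had 1.60 and was low in haltere tsh cells alone. For CR44333, within rn, the fitted value of 8.21 involves 0 counts in haltere tsh cells, depends on the prior count and is no measure of size.

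Among the negative differences, the value was -1.50 for CR46006 (mir-276a; adjusted p = 4.7e-04), -1.28 for CR43650 (mir-8; adjusted p = 0.0013), -1.16 for CR43334 (bantam; adjusted p = 7.7e-04) and -0.67 for CR43314 (mir-bft). It was -1.51 for CR46031, within bbg (6.75 and 7.42 CPM in haltere nub cells and 12.8 to 19.1 CPM elsewhere), and -0.76 for CR32111, between caup and mirr. The call for CR32111 was lost without replicate 2 of haltere tsh, replicate 2 of haltere nub or replicate 1 of wing nub cells.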

How the results depend on the processing

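Of 112 calls on named members, 80 were kept under every alternative run and 32 were lost under at least one; none changed direction. In 56 instances a named member's comparison that was not called over all 8 libraries was called under an alternative. DESeq2, RLE size factors, thinned counts and the replicate block lost none of the 112 calls. The fit without a filter lost 8, and fits of only the 4 libraries compared lost 8. Without the filter or with DESeq2 the numbers of calls stayed within 1.5 times; with only the 4 libraries compared, tsh cells gave 11. A threshold of 2 CPM gave 348 members and one of 10 CPM 140. Pearson's r with the nearest coding gene, over members that overlap no other gene, was 0.83 between nub cells, 0.38 between haltere domains and 0.44 for the interaction (0.31 over all members).

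Leaving out 1 library gave 33 to 46 calls between nub cells, 7 to 25 between tsh cells, 37 to 61 between wing domains, 51 to 68 between haltere domains and 16 to 51 for the interaction. The libraries behind the lowest numbers are named in the results. Without wing tsh replicate 1 the interaction gave 51 calls. These fits have fewer samples. Members numbered 221 to 238. The correlations ranged from 0.54 to 0.68, 0.31 to 0.52, 0.62 to 0.68, 0.55 to 0.65 and 0.24 to 0.38.

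The deviations of same-numbered libraries correlated at -0.32 to 0.11 across genes. The value of -0.32 was that of wing tsh with wing nub cells, whose same-numbered libraries thus tended to deviate in opposite directions. Whether libraries of different groups were made together, under the same or other numbers, was not tested. With a replicate block the calls were 61, 17, 53, 85 and 39.

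Depth limits the lowest members: a single read equals up to 0.0662 CPM, so levels near 0 in tsh or nub cells rest on few reads.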

Other observations

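Some members not described above were picked after their values were seen. CR44612, within Pvf3, the gene of a ligand of the receptor Pvr, was called in all 4 comparisons of 2 groups. It stood at 10.3 and 10.2 CPM in wing tsh, 4.21 and 5.88 in haltere tsh, 4.75 and 4.23 in wing nub and 1.68 and 1.65 in haltere nub cells. Its log2 fold changes were -1.43 ± 0.24 between nub and -1.02 ± 0.24 between tsh cells of haltere and wing, and -1.19 ± 0.24 and -1.60 ± 0.24 between nub and tsh cells of wing and haltere.

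CR46003 stood at 2.62 and 1.68 CPM in haltere nub against 18.5 and 20.2 in wing nub cells, a log2 fold change of -3.17 ± 0.82 that was not called (adjusted p = 0.051). Its wing tsh replicates stood at 20.9 and 3.31 CPM. Differences between replicates were counted after a small constant was added to every level, so ratios at low levels counted less. By this measure 8 members differed by more than 2-fold in wing tsh cells. Haltere tsh and wing nub cells had 1 such member each and haltere nub cells 0. Without the constant, 5 members were more than 2-fold higher and 3 more than 2-fold lower in wing tsh replicate 1 than in replicate 2. The other groups were not counted without it.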
